A study of Homo sapiens with 38 samples.

Results

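The regions described here are 3322 sites in stimulated Jurkat cells where the transcription factor GATA3 was detected by chromatin immunoprecipitation and sequencing (ChIP-seq), where the repressor BHLHE40 was not, and where the histone mark H3K27ac was present. They are 11.5% of the 29009 GATA3 regions. They were chosen by the positions in 3 deposited lists: a GATA3 region was a member when no BHLHE40 region touched it and it had 1 bp or more in common with an H3K27ac region. The other GATA3 regions fell into 10927 shared with BHLHE40 and carrying H3K27ac (37.7%), 11564 with neither BHLHE40 nor H3K27ac (39.9%) and 3196 shared with BHLHE40 without H3K27ac (11%). The lists of GATA3, BHLHE40 and H3K27ac regions therefore set the classes, and their own values are given below as a description only.

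Jurkat is an established line of leukaemic T cells (T-ALL in the labels). All 3 lists came from cells that carried a control lentivirus (Ctrl_LV) and had been stimulated with agents that bypass the T-cell receptor: the phorbol ester PMA (50 ng/ml) together with the calcium ionophore ionomycin (500 ng/ml). The stimulation is given as 5 hours in the sample labels and as 2 hours in the protocol. Each list stands for a group of 2 samples, so no region has a value per sample. All 38 samples of the study are titled as stimulated, so there were no unstimulated cells to compare with. Sequencing depth is not given by these lists, which hold 29009 GATA3, 26205 BHLHE40 and 113570 H3K27ac regions.

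GATA3 is a zinc-finger transcription factor that recognises short GATA words in DNA and is required for T-cell development and for T helper type 2 identity. BHLHE40 is a basic helix-loop-helix repressor, induced when T cells are activated, that binds E-boxes. H3K27ac is acetylation of a lysine of histone H3 that marks active promoters and enhancers, so a GATA3 region that carries it is a candidate active element.

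Sequences were examined in promoter windows of RefSeq (GRCh38.p14), each running from 250 bases before an annotated start site to 50 bases after it. Of the members, 52 had their summit, the base of highest signal, in such a window, which gave 56 windows, and 140 overlapped a window anywhere. Those windows belonged to 43 protein-coding genes and to non-coding genes. The following promoters are shown because each holds a GATA word beside a member's summit, within 28 bp in all but CD8A (59 bp), at a gene with a known role in lymphocytes or in transcription. Each line gives up to 75 bases on each side of the summit, 5′ to 3′ on the gene's strand, stopping at the window's edge or 25 bases after the start site. Capitals mark a GATA word on either strand, meaning AGATAA, the like word AGATAG that ends in a G, or either of those with T as its first base (TGATAA, and also TGATAG).
FYN, chr6:111759893-111760005, minus strand: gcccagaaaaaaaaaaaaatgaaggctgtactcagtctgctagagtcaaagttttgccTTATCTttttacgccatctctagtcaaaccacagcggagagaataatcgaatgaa
RHOH, chr4:40190952-40191102, plus strand: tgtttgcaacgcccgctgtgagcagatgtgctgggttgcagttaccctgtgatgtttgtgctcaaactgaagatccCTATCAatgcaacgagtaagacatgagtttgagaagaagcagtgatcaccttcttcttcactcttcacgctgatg
CD8A, chr2:86808469-86808619, minus strand: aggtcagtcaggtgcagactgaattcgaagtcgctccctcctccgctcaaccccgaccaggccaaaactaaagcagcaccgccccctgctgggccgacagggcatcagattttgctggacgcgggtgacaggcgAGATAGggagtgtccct
CREM, chr10:35194995-35195145, plus strand: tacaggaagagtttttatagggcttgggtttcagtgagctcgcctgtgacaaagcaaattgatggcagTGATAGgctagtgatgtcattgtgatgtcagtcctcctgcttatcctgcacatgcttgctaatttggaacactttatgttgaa
WIPF1, chr2:174634615-174634765, minus strand: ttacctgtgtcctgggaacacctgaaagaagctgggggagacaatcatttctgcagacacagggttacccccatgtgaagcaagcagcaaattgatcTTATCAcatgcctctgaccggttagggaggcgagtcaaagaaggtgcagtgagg
CD52, chr1:26317726-26317876, plus strand: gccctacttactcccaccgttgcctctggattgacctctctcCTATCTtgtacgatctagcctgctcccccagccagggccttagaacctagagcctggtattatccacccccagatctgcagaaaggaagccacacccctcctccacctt
CREB3L3, chr19:4153423-4153573, plus strand: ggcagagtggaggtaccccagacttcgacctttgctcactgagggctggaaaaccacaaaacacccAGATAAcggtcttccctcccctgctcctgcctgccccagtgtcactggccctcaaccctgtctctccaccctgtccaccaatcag

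FYN encodes a Src-family kinase of T-cell receptor signalling, and its promoter held the strongest member among these windows, with a GATA3 signal value of 46.2 and the summit 13 bp before the start site. The signal value is the enrichment per region as deposited. At RHOH, which encodes a small GTPase needed for T-cell receptor signalling in the thymus, the summit lay 53 bp before the start site with a signal of 34.8, and the GATA word was 1 bp from it. The member at CD8A, the coreceptor chain of cytotoxic T cells, was weaker, at 12.0, with its summit 148 bp before the start site. CREM, a cAMP-responsive transcription factor gene, had a signal of 10.2 and a GATA word 2 bp from the summit. WIPF1, whose product binds the Wiskott-Aldrich syndrome protein, had a signal of 24.2 and a word 22 bp away. CD52, a lymphocyte surface glycoprotein gene, had a signal of 13.7 and a word 28 bp away. CREB3L3, a transcription factor gene known mainly from liver, had a signal of 29.3 and a word 4 bp away.

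A GATA word was not a feature of every strong member. Neither of the following windows held one of the 4 words, although their members ranked high in GATA3 signal, and they are shown for contrast.
DAPK2, chr15:64046611-64046735, minus strand: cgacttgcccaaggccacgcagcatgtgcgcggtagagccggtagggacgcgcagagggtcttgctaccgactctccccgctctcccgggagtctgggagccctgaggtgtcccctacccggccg
ZNF736, chr7:64313791-64313941, plus strand: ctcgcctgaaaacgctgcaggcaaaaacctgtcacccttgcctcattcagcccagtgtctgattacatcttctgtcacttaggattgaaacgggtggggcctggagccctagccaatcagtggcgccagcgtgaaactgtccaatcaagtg

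DAPK2, a death-associated protein kinase gene, had a GATA3 signal of 38.9, second to FYN among these promoters, with its summit upstream of the start site. ZNF736, a zinc-finger gene, had a GATA3 signal of 25.2, and the strongest H3K27ac region it touched had a signal of 13.7, among the 5 highest of all members.

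Across the promoter windows, GATA words were more frequent in members than in the acetylated regions shared with BHLHE40. They were present in 28 of the 56 member windows (50.0%, 95% Wilson interval 37.3 to 62.7), in 398 of 1718 windows at summits shared with BHLHE40 and carrying H3K27ac (23.2%), in 40 of 57 windows with neither (70.2%), in 36 of 63 windows shared without H3K27ac (57.1%) and in 25.0% of all 35116 promoter windows. The difference between members and shared acetylated summits was 26.8 percentage points (95% Newcombe interval 14.0 to 39.6). With windows touched anywhere by the region, an alternative chosen after seeing the data, it was 16.7 points (9.7 to 24.4), from 35.0% and 18.3%. A word lay within 50 bp of the summit for 18 of 52 members (34.6%) and for 207 of 1368 shared acetylated summits (15.1%), a difference of 19.5 points (7.85 to 33.2). It was 60.4% with neither and 43.6% in regions shared without H3K27ac, so members lay below both classes without H3K27ac, a difference that was not tested. Words beyond the window's edge were not seen in these counts.

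The E-box CACGTG, the sequence that BHLHE40 recognises, was in 0 of the 56 member windows, which as 3 counts of the total allows a share of up to 5.36%, and as a 95% Wilson upper bound 6.42%. It was in 210 of the 1718 shared acetylated windows (12.2%), in 4 of 57 with neither (7.02%), in 2 of 63 shared without H3K27ac (3.17%, 0.875 to 10.9) and in 7.26% of all promoter windows. A low E-box share was therefore also measured in the BHLHE40-bound windows that lack H3K27ac. The difference between members and shared acetylated windows was -12.2 points (-13.9 to -5.64). With windows touched anywhere, the E-box was in 4.29% of member windows against 11%. The promoter windows also differed in base composition. Median GC content was 55.3% for members, 63.3% for shared acetylated windows, 49.7% for those with neither and 58.7% for all windows. In windows with GC below 60%, GATA words were in 61.1% of 36 member windows and 40.6% of 584 shared acetylated windows. At 60% or above they were in 30.0% of 20 and 14.2% of 1134. The difference was 20.5 points (3.79 to 35.2) in the lower part and 15.8 (0.201 to 37.8) in the upper. Some windows share a summit, with 56 windows for 52 members and 1718 for 1368 shared acetylated summits. The intervals treat windows as independent, so a lower bound this near 0 does not settle the direction in the upper part. The E-box was at 0 in member windows of both parts, but there the intervals of the difference reached 0.285 and 2.64 points and so included 0.

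For the other motifs, searched on both strands, the intervals of the difference between members and shared acetylated windows included 0 at the summit. TGTGGT, the core recognised by RUNX factors, was in 17.9% of member windows, 13.4% of shared acetylated windows and 13.1% of all windows, with a difference between the first pair of 4.41 points (-3.63 to 16.5). CCGGAA and, counted with it, CAGGAA, both cores of the ETS family, were in 55.4%, 59.3% and 41.4% (difference -3.96, -17.1 to 8.52), and in 38.6% of windows with neither and 31.7% of those shared without H3K27ac. TGANTCA, the AP-1 word, was in 7.14%, 6.23% and 7.71% (difference 0.915, -3.59 to 10.8). With windows touched anywhere, the AP-1 difference was 3.83 points, with an interval above 0 (0.36 to 9.17). The motifs searched share no word, and a match describes letters and not occupancy.

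**Figure D1:**
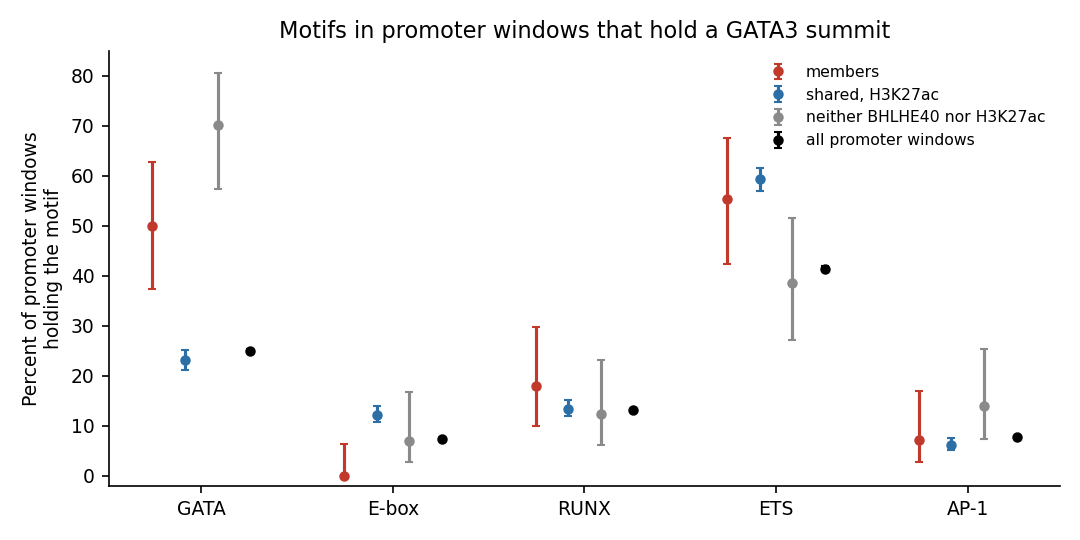
Percent of promoter windows of 300 bases that hold each motif (y axis), for windows with a GATA3 summit of 3 classes and for all 35116 windows; bars are 95% Wilson intervals. GATA words stand at 50.0% in members against 23.2% in shared acetylated windows, and the E-box stands at 0 against 12.2%.

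Most members lay away from promoters and inside genes. A summit within 1 kb of either end of a RefSeq gene record was found for 395 members (11.9%, 95% Wilson interval 10.8 to 13.0). Of the rest, 2029 (61.1%) lay deeper inside a record, and 896 (27%) lay outside any record and more than 1 kb from an end. Among shared acetylated regions 35.2% lay at gene ends, so members were lower by a difference of -23.3 points (95% Newcombe interval -24.7 to -21.9). Among regions with neither BHLHE40 nor H3K27ac the share was 6.67%, and members were higher by 5.22 points (4.07 to 6.45). Regions shared with BHLHE40 but without H3K27ac were close to the members, with 10.2% at gene ends (9.17 to 11.3) and 60.5% inside genes. A low gene-end share was therefore not particular to members. The members' gene-end share was below that of shared acetylated regions on 23 of 23 chromosomes and above that of regions with neither on 21, the exceptions being chromosomes 8 and 13. Inside-gene shares were 15.0 points (13.0 to 16.8) higher in members than in shared acetylated regions. Against regions with neither, where 60.3% lay inside genes, the difference was 0.744 points with an interval (-1.15 to 2.62) that includes 0, and it was -3.72 points (-6.69 to -0.793) when H3K27ac regions needed a −log10 q of at least 5. These intervals cover the counting of regions, not the spread between cultures.

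**Figure D2:**
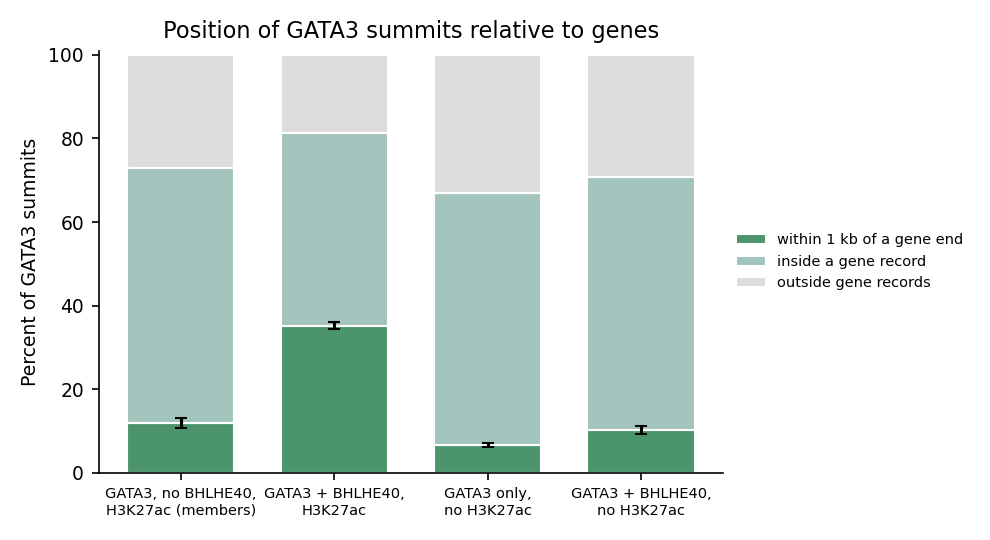
Percent of GATA3 summits (y axis) within 1 kb of a gene end and, for those farther from an end, inside or outside gene records, for the 4 classes of GATA3 regions. Error bars on the lowest segment are 95% Wilson intervals. Members have 11.9% at gene ends, between the regions with neither (6.67%) and the shared acetylated regions (35.2%). Regions shared without H3K27ac have 10.2%.

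Start sites gave the same order. The 3184 members that could be placed against the start sites of the promoter table, which has none on chromosome 8, lay a median of 25408 bp from the nearest one. Of these, 217 (6.82%) were within 1 kb and 2355 (74.0%) were over 10 kb away. Shared acetylated regions were within 1 kb in 29.5%, those with neither in 2.27% and those shared without H3K27ac in 4.35%. Start sites of some genes are missing, with 188 of the 250 list genes matched. The distances can therefore be too long and the shares within 1 kb too low, in every class. By type of record, 1902 member summits (57.3%) were in a protein-coding record, 480 (14.4%) in a long non-coding RNA record and 1015 (30.6%) in no gene record.

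The H3K27ac at members was weaker than at regions shared with BHLHE40 and near the middle of the H3K27ac list. The strongest H3K27ac region touched by a member had a median signal of 3.37, close to the median of 3.31 for all H3K27ac regions, against 5.06 at shared acetylated regions. Its median −log10 q was 3.82 against 17.4, with 3 for all H3K27ac regions. The H3K27ac region with the largest overlap was a median of 292 bp wide against 699 bp, with 232 bp for all, and it overlapped the GATA3 region by 235 bp against 500 bp. A −log10 q of at least 5 was reached by 1167 members (35.1%) and by 8519 shared acetylated regions (78.0%), and one of at least 50 by 59 (1.78%) and 2851 (26.1%). Of the members, 2921 (87.9%) touched a single H3K27ac region. The GATA3 summit fell inside an H3K27ac region in 1738 members (52.3%) and in 7913 shared acetylated regions (72.4%). The distance between the GATA3 and H3K27ac summits had a median of 176 bp in members and 221 bp in shared acetylated regions, and it was at most 200 bp in 56% and 44.8%. Members touched 3719 H3K27ac regions and shared acetylated regions touched 13776, of which 88 were touched by both. Those touched by members were a median of 285 bp wide, and GATA3 regions do not overlap each other. This limits how many could be touched by both, so the count is no sign of separate elements.

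In GATA3 signal the members were of middling height. Their values ran from 1.75 to 171 with a median of 10.4, and the middle of the distribution lay between 7.62 (25th percentile) and 15.4 (75th). The medians were 13.0 for shared acetylated regions, 10.1 for those with neither and 16.3 for those shared without H3K27ac. Shared acetylated regions had a far longer upper tail, with a 90th percentile of 52.2 against 22.8 in members. When all GATA3 regions were ranked by signal in 10 equal parts, members made up 15.9% of the weakest part, 11.2% to 13.3% of the next 7 parts, 9.13% of the ninth and 3.55% of the strongest. Median widths were 584 bp in members and 828, 459 and 604 bp in the other classes, in the order above. The highest reproducibility score, 1000, was held by 65.6% of members and by 74.9%, 53.8% and 80.9% of the others.

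**Figure D3:**
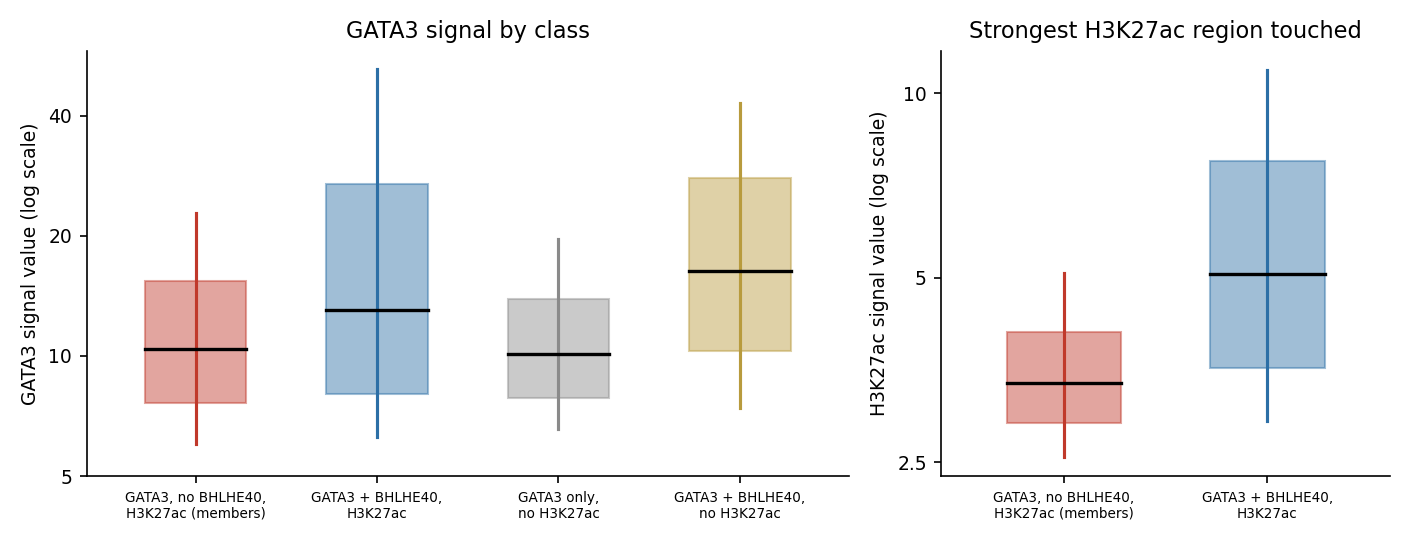
Deposited signal values on log axes: GATA3 signal in the 4 classes of GATA3 regions (left) and the strongest H3K27ac region touched in both acetylated classes (right). Boxes run from the 25th to the 75th percentile with the median as a black line, and the thin lines run from the 10th to the 90th; the members' medians are 10.4 for GATA3 and 3.37 for H3K27ac.

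Because H3K27ac was weaker at members, the gene-end shares were also set side by side within 5 classes of H3K27ac strength, a comparison added after seeing the data. Below a −log10 q of 2, the share was 7.10% of 479 members and 8.71% of 333 shared acetylated regions. It was 8.23% and 10.8% between 2 and 5, 11.1% and 14.0% between 5 and 10, and 28.5% and 36.9% between 10 and 50. At 50 or more, it was 42.4% of 59 members and 67.1% of 2851 shared acetylated regions. Members were lower in each class, with the largest gap in the strongest, but the interval of the difference included 0 below 2 and between 5 and 10. Strengths were not matched inside a class. The strongest class has no upper bound, and the highest −log10 q was 372 in members and 1437 in shared acetylated regions. Weighted to the members' own numbers in these classes, the shared acetylated regions had 15.5% at gene ends, and the difference was -3.65 points (-5.04 to -2.26) in place of -23.3. What remained of it inside classes was not tested.

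**Figure D4:**
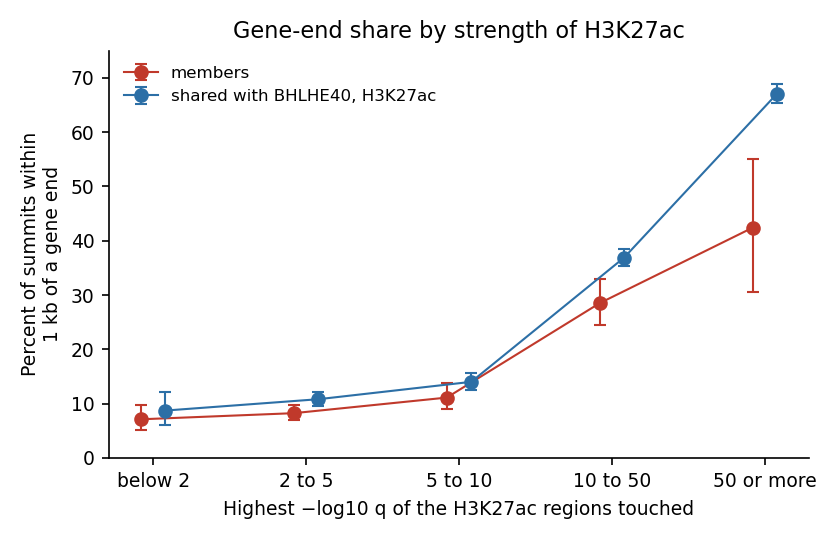
Percent of GATA3 summits within 1 kb of a gene end (y axis) against the highest −log10 q of the H3K27ac regions touched (x axis, 5 classes), for members and for regions shared with BHLHE40; bars are 95% Wilson intervals. Both rise with H3K27ac, from 7.10% to 42.4% in members and from 8.71% to 67.1% in shared regions.

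BHLHE40 was often not far away. The nearest BHLHE40 region lay a median of 14899 bp from a member (25th to 75th percentile, 5270 to 42825 bp), against 22914 bp for regions with neither mark. It was within 1 kb of 325 members (9.78%), within 10 kb of 1316 (39.6%) and within 100 kb of 2966 (89.3%). For regions with neither BHLHE40 nor H3K27ac these shares were 6.8%, 33.2% and 80.1%, so much of this nearness was common to GATA3 regions without BHLHE40. At the edges of the rule, 58 members had a BHLHE40 region at most 100 bp away, with a median GATA3 signal of 8.33, and 26 acetylated regions overlapped BHLHE40 by at most 100 bp, with a median of 7.23. The 28 members that overlapped H3K27ac by at most 10 bp had a median of 8.34, and the 25 regions without BHLHE40 that missed H3K27ac by at most 10 bp had 8.04.

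The strongest members were mostly inside genes, as were members in general (61.1%). Their H3K27ac signals lay around the members' median of 3.37. The highest GATA3 signal, 171, was at chr12:104108701-104109775 (hg38), 2776 bp from HCFC2 and 29th among all GATA3 regions, while its H3K27ac signal was 3.05. A member with a signal of 152 lay at chr2:129442728-129443845, at the end of the non-coding record LOC105373613. Next came members inside MAP3K2 (135), a kinase gene of the mitogen-activated cascade, SMYD3 (122), a lysine methyltransferase gene, and IL16 (102), which encodes a T-cell chemoattractant. The remaining members of the top 10 were in SLMAP (78.2), UIMC1 (67.1) and LMLN (63.6), 81 bp from a start site of SH3D21 (60.1), and outside genes on chromosome 13 (58.6) with SLAIN1 the nearest coding gene. Their H3K27ac signals ran from 2.89 at LMLN to 4.53 at SH3D21, and their BHLHE40 distances from 8807 bp at SMYD3 to 186288 bp at LOC105373613.

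The members with the strongest H3K27ac were a different set. The highest H3K27ac signal was 22.5, in C21orf91, where the GATA3 signal was 12.5 and a BHLHE40 region lay 57 bp away. The next was 17.8, at PSTK, a kinase gene of selenocysteine synthesis, where the GATA3 signal was 3.34 and BHLHE40 was 37 bp away. The others were in SWT1 (16.6), 6759 bp from SEL1L (15.6) and at the ZNF736 promoter shown above (13.7), with BHLHE40 at 57498, 29807 and 247707 bp. The first pair thus rests on a gap of under 100 bp between called regions. Of the members nearest the median GATA3 signal of 10.4, those in FBXO32 and CISD1 lay inside the gene and that near PYGO1 2053 bp from it, with H3K27ac signals of 5.6, 3.51 and 3.82.

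A member lay in or within 10 kb of 2174 of the 20037 protein-coding gene records (10.8%), and 2276 members (68.5%) were so placed. That share is near the one for all GATA3 regions, of which 20018 of 29009 were so placed. Of the genes with a member, 1807 had 1 member, 279 had 2, 49 had 3, 34 had 4, 4 had 5 and 1 had 10. Genes with a member were longer, with a median record of 72968 bp against 24115 bp for all. KLF12, which encodes a zinc-finger repressor, had 10 members among its 32 GATA3 regions over a record of 620 kb. CDK6, a cell-cycle kinase gene active in T-cell leukaemia, had 5 of 46, which is near the 11.5% among all GATA3 regions. The genes named here were picked for their number of members, so their counts are a description only. ARID4B, a chromatin gene, had 5 of 16, BCAR3 5 of 18 and RNLS 5 of 19. Of the genes with 4 members, the densest were CD1B (4 of 7 GATA3 regions), AMN1 (4 of 7), TRAK2 (4 of 8), MGAT4A (4 of 12) and CRTC3 (4 of 9). The CD1B record spans 46.1 kb and overlaps that of its neighbour CD1C, and 1 member lies in both. At TRAK2 no GATA3 region was shared with BHLHE40 and acetylated.

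Genes of T-cell receptor signalling held members in 50.0% of cases in both lists made for them, against 10.8% of all protein-coding genes. Their median records were 27.5 kb for the receptor complex and 54.7 kb for proximal signalling, against 24.1 kb for all. Of the 12 genes of the receptor complex and its coreceptors, 6 had a member: CD3E, CD247, CD4, CD8A, CD8B and CD28. The member 2735 bp from CD4 was the strongest of these (GATA3 signal 32.6) and is also within 10 kb of LAG3, and CD8A and CD8B share a member. CD247, the zeta chain, had one at 11.4 inside the gene, 18753 bp from a start site. CD28, a costimulatory receptor, had one at 9.81 with BHLHE40 205 bp away. CD3D, CD3G, CD2, CD5, CD6 and CD7 had none. Of 20 kinases, adaptors and phosphatases that act just below the receptor, 10 had a member: FYN, VAV1, THEMIS, PTPRC, CBLB, UBASH3B, PRKCQ, RASGRP1, SH2D1A and SIT1. The kinase PRKCQ had a pair, at 35.3 with weak H3K27ac (2.32) and at 11.7 with the strongest −log10 q of these genes (131). The ubiquitin ligase CBLB had one at 20.7 and the Ras activator RASGRP1 one at 21.4. THEMIS, a thymocyte selection gene, had 3 between 6.87 and 11.6.

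GATA3 regions of any class were also frequent at these lists, at 10 of 12 receptor complex genes and 19 of 20 proximal signalling genes against 53.0% of all protein-coding genes. At the receptor complex, members were 5 of 36 such regions (13.9%, 95% Wilson interval 6.08 to 28.7). At proximal signalling genes they were 15 of 128 (11.7%, 7.23 to 18.4). Over all protein-coding genes members were 11.4% of the GATA3 regions there, so the members' share at these lists was near the background even though their number per gene was high.

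Of 14 thymocyte stage genes, 7 had a member (50.0%, against 10.8% of all genes), with a median record of 17.9 kb. Members were 10 of 47 GATA3 regions (21.3%, 12.0 to 34.9), against 11.4% over all protein-coding genes. Of these 10 members, 7 lie in the CD1 cluster. The 7 genes were RAG1, which encodes the V(D)J recombinase, RHOH, ARPP21, and the lipid-antigen presenting genes CD1B, CD1C, CD1D and CD1E, which neighbour each other on chromosome 1. CD1B had 4 members with GATA3 signals of 7.13, 16.6, 6.98 and 10.0, the first of them shared with CD1C. The member in RAG1's record had a GATA3 signal of 11.2 and an H3K27ac signal of 7.47, the highest H3K27ac signal among the list genes' members.

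At transcription factor genes, members were a smaller part of the GATA3 regions, within intervals that include the 11.4% of all genes. Of 21 T-cell identity factors, 9 had a member (42.9%, 24.5 to 63.5, against 10.8% of all genes). They were BCL11B, IKZF2, IKZF3, TOX, TOX2, SATB1, ZEB1, RUNX2 and BACH2. These are long genes, with a median record of 102 kb for the list against 24.1 kb for all. The 13 members at this list were 7.26% of 179 GATA3 regions (4.29 to 12.0). IKZF2, the gene of Helios, had 3, the strongest at 20.2 and 19.6, and BACH2, a repressor of effector genes, had 3 of 38, between 5.12 and 11. Of 11 genes of the TAL1 complex, 2 had a member (18.2%, 5.14 to 47.7). TCF12 had 4 members (6.09 to 14.7) and RUNX1 had 1 of 29 GATA3 regions. Of 26 activation-induced factors, NR4A3 (17.8), NFATC3 (19.5) and NFKB1 (7.44) had 1 each, which is 11.5% of the list and near the 10.8% of all genes.

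Among ligands and receptors, the strongest member was at CSF2, the gene of the growth factor GM-CSF, with a GATA3 signal of 40.4, 7349 bp from the record. IL3, its neighbour on chromosome 5, had one at 16.4, 1434 bp before its start site and 718 bp from BHLHE40. TGFB1 (18.4), IL22 (7.40) and CCL1 (7.36) made up the 5 of 20 cytokine and chemokine genes with a member (25.0%, 11.2 to 46.9, against 10.8% of all genes), and IL2, IL4, IL5, IL13, IFNG and TNF had none. IL2RA, the inducible interleukin-2 receptor chain, had 3 members inside the gene (12.4, 8.45 and 12.2), and IL2RG (18.6), IFNAR2 (9.96) and TGFBR2 (6.78) had 1 each. These were 4 of the 20 cytokine receptors (20%, 8.07 to 41.6), a list with a median record of 41.5 kb against 24.1 kb for all genes. Of 20 costimulatory and inhibitory receptors, 6 had a member (30%, 14.5 to 51.9): LAG3, CD226 (14.1), CD44 with 10.9 and 2.26, SLAMF1 (6.77), SLAMF6 (15.4) and BTLA (7.62). Of 16 homing receptors and integrins, ITGB1 (21.9 and 6.00) and ITGB2 (10.2) did, which at 12.5% is near the 10.8% of all genes. Members were 20.8% of the GATA3 regions at cytokine genes, 8.96% at cytokine receptors, 9.72% at costimulatory and inhibitory receptors and 5.77% at homing receptors, all with intervals that include the 11.4% of all genes.

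Genes of other cell types held members at 0 to 16.7%, around the 10.8% of all genes. GATA3 regions of any class lay at 7 of 12 B-cell, 6 of 12 monocyte, 4 of 14 erythroid and 3 of 12 hepatocyte genes, at 10 of 12 genes of the receptor complex that marks T cells, and at 18 of 20 ribosomal protein genes, against 53.0% of all protein-coding genes. None of 12 B-cell genes and none of 12 hepatocyte genes had one, and an ITGAM (24.9) and an FCGR3A (8.44) member, the latter at a gene with a near-identical copy, made up 2 of 12 monocyte and macrophage genes (16.7%), where members were 14.3% of the GATA3 regions (4.01 to 39.9). Of 14 erythroid genes, GATA2, a GATA-family factor of blood stem and progenitor cells, had members of 41.0 and 26.5, at 4576 and 9058 bp from its record, which were 28.6% of that list's 7 GATA3 regions (8.22 to 64.1). Of 20 cytosolic ribosomal protein genes, RPL5 (8.02) had one. With 11 to 26 genes a list, the intervals were wide: 0 of 12 has a 95% Wilson upper bound of 24.2%, which includes the background of 10.8%.

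**Figure D5:**
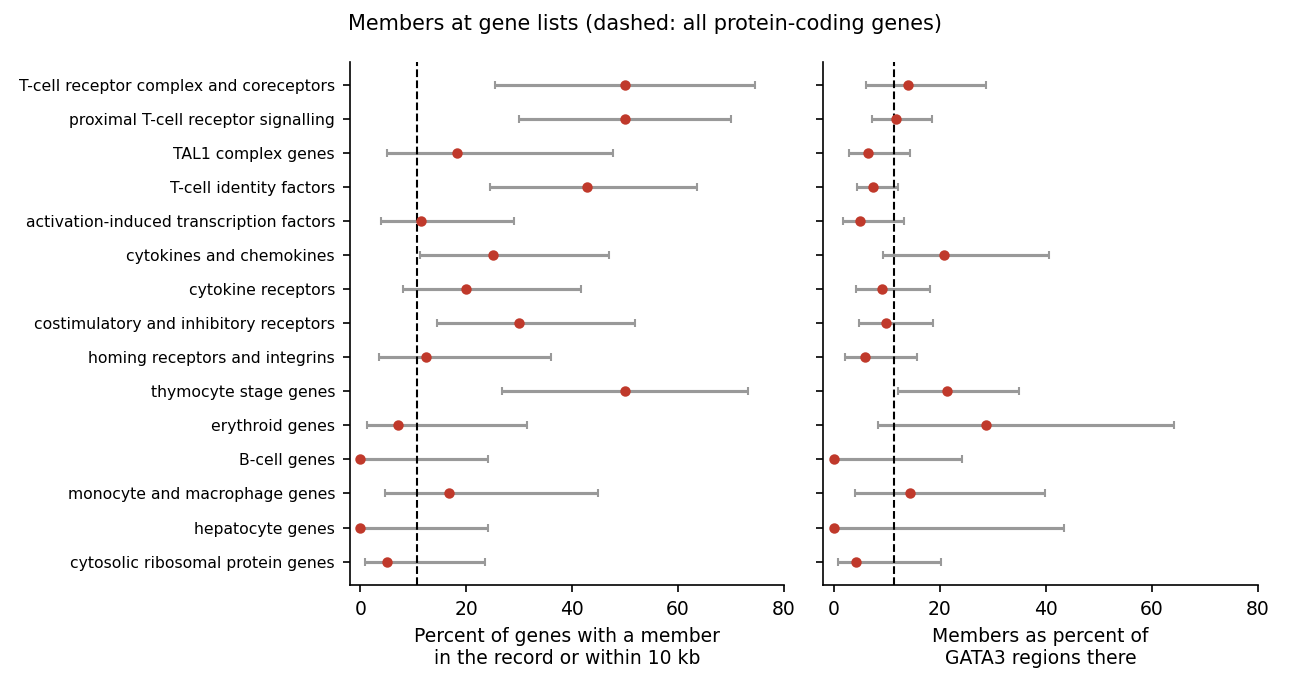
For 15 gene lists, the percent of genes with a member in the record or within 10 kb (left) and members as a percent of the GATA3 regions there (right); points with 95% Wilson intervals, and dashed lines at the values over all protein-coding genes, 10.8% and 11.4%. Receptor complex, proximal signalling and thymocyte stage genes reach 50.0% on the left, and on the right most intervals include the dashed line.

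The GATA3 regions near each gene of the proteins studied were too small in number for a member share to be read against the 11.5% among all GATA3 regions. Within 50 kb of GATA3 itself 0 of 6 GATA3 regions were members, of BHLHE40 0 of 9, and of CD69, the early activation marker whose regulatory element was edited elsewhere in the study, 0 of 11. Near TAL1, the leukaemia oncogene that Jurkat cells express, 1 of 5 was a member: chr1:47262770-47263119 (hg38), 30603 bp from the record, with a GATA3 signal of 5.72 and an H3K27ac signal of 2.71.

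Members lay on every autosome and on chromosome X. They made up 7.85% of GATA3 regions on chromosome 19 (46 of 586) to 13.2% on chromosome 12 (207 of 1567). On chromosome 19, the lowest, 41.3% of members were at gene ends, against 60.2% of shared acetylated regions there. When members at most 12.5 kb apart were joined, 2963 (89.2%) stood alone, 146 runs had 2, 17 had 3 and 4 had 4. No reference share was set beside these counts, so they do not tell whether members cluster. The runs of 4 lay at the non-coding genes LINC01221 and LINC01222 on chromosome 1, in LOC105369842 on chromosome 12, upstream of ITGA4 on chromosome 2 and in MSRA on chromosome 8. ITGA4 encodes the alpha chain of an integrin that guides lymphocytes into tissues. Its 4 members lay from 12530 to 26718 bp before the start site, with GATA3 signals of 14.1, 10.8, 1.75 and 9.62, and 4 of the 5 GATA3 regions in that stretch were members. At LINC01221 all 4 GATA3 regions of a 6206 bp stretch were members, the strongest with a signal of 22.1. They were 1314, 2261, 1237 and 1125 bp wide and so lay nearly end to end. Whether they are separate elements was not tested.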

How the data were processed

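ChIP-seq of GATA3, BHLHE40 and H3K27ac in stimulated Jurkat cells with a control lentivirus was represented by 3 lists, each from a group of 2 samples. The titles of the 38 samples put them in 19 groups of 2, of which 16 were not used here. Per the submitters' processing notes, bcl2fastq 2.20 and MACS2 were used and the build is hg38; the aligner and the use of inputs are not given in the sources used here. Per the labels, the factor lists were filtered at an irreproducible discovery rate of 0.05, whereas that of H3K27ac is called pooled and has no such filter, so it keeps many weak regions. The authors' signal values per region and the authors' −log10 q-values served to describe, rank and filter regions inside a list and for nothing else. The deposited score, from 540 to 1000 in the GATA3 and BHLHE40 lists, was used as a stricter filter at 830, which corresponds to a rate of 0.01. Positions and summit offsets are the deposited values, written 1-based.

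From these, overlaps of at least 1 bp gave 4 classes of GATA3 regions; no lines overlapped within a list. Summits were placed against 59679 RefSeq gene records (GRCh38.p14), and promoter sequence came from the RefSeq table of 35116 windows. All 250 genes of the 15 lists matched a record, and 188 a promoter window. Shares carry 95% Wilson intervals and differences of shares 95% Newcombe intervals, which cover counting error only; neighbouring regions are not independent. Values that belong to the lists that chose the members were given with no test.

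The members and the gene lists were chosen with earlier results of these data known. Text names the 10 members of highest GATA3 signal, the 5 of highest H3K27ac signal, the 3 nearest the median, members within 50 kb of GATA3, BHLHE40, TAL1 and CD69, list genes with a member, and the 10 coding genes with the most members, with ties broken by members per Mb, a choice made after seeing the values. Promoters, runs and edge regions were named after their values were seen. Motif and GC measures around summits outside promoters, which need a genome, were not run; promoter windows were used in their place. Alternatives changed the overlap, the score, the H3K27ac strength, the distance to BHLHE40, the chromosomes and the gene definition. Python 3.11.15 ran matplotlib 3.10.9, pandas 2.3.3 and numpy 2.4.6.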

Additional observations from a re-analysis of the deposited data

How the results depend on the processing

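The rule yielded between 1167 and 3322 members: 2809 with an overlap of 50% of the smaller region, 1823 with the GATA3 summit inside the other region, 3231 at a score of at least 830 (of which 2550 are among the 3322, since BHLHE40 regions were filtered too), 1167 with H3K27ac at a −log10 q of at least 5 and 2997 with no BHLHE40 within 1 kb. Under the 10 settings tried, the gene-end difference from shared acetylated regions ran from -25.6 to -3.65 points, the latter weighted to H3K27ac strength, and its interval stayed below 0. Against regions with neither, it ran from 3.73 to 12.2 points under 9 settings. The inside-gene difference from shared acetylated regions ran from 11.4 to 16.2. Against regions with neither (0.744), the inside-gene difference reversed to -2.11 with the summit rule, to -0.378 at a score of 830 and to -3.72 with strong H3K27ac, and it was 2.45, with an interval above 0, for protein-coding records alone; the cause was not tested. The number of protein-coding genes with a member fell from 2174 to 1310 with the summit rule and to 909 with strong H3K27ac, since fewer members remain, and rose to 4001 within 50 kb, since the window is wider. The promoter E-box difference was -9.59 points in windows with GC below 60% and -13.6 at or above it, with fewer windows in each and intervals that include 0, and the AP-1 difference reached 3.83 with windows touched anywhere. In all, 41 of 51 alternative values kept their direction and their side of 0, or stayed within 1.5 times for counts of genes. No paired analysis was possible because the lists hold no values per sample; for the same reason, leaving out each replicate was not run. Motif and GC alternatives around summits outside promoters were not run. Depth is unknown, and the 56 member promoter windows limit the motif shares.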
